A study of Homo sapiens with 26 samples.

Results

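Local translation of glycolytic enzymes was followed through 10 genes, of the 60663 listed in the RNA-seq tables: the hexokinases HK1 and HK2 and 8 soluble enzymes, GPI, PFKL, PFKP, ALDOA, TPI1, PGK1, ENO1 and PKM. They were chosen by name and by where their proteins reside, not by a measured threshold. Hexokinase starts glycolysis by phosphorylating glucose in the cytosol. HK1 and HK2 each begin with a short hydrophobic segment that docks the finished enzyme on the outer mitochondrial membrane (OMM), largely through the porins (VDACs), so both enzymes sit on the outer face of mitochondria next to the site of ATP export. The enzymes that follow in the pathway have no such anchor and are textbook examples of proteins made on free ribosomes. The values below ask whether ribosomes on HK1 and HK2 were labelled near the OMM more than ribosomes on the soluble enzymes.

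The cells were HEK293T, an established line of human embryonic kidney origin, in which an Avi tag was put on the endogenous RPL29 of the large ribosomal subunit. BirA is a ligase that attaches biotin to this tag, and LOV-BirA, a form that blue light switches on, was placed on the ER by a Sec61β fusion, on the OMM by the transmembrane domain (TMD) of OMP25, or free in the cytosol, and each location has 2 lysates with a total input and a streptavidin pulldown. Ribosome profiling of these lysates sequences the short mRNA fragments (footprints) inside labelled ribosomes. In a second readout intact mRNAs were pulled down with the OMM form and sequenced, from wild-type cells that carry a control gRNA, an AKAP1 knockout line and a LARP4 knockout line, 2 lysates each, and from cells without cycloheximide (CHX, a drug that stalls elongating ribosomes), 1 lysate. The fusions were delivered by lentivirus, in polyclonal sorted lines, the ER form from an SFFV promoter and the others from an EF1α promoter, so their doses need not be equal. Each knockout is 1 monoclonal line, and a difference between genotypes cannot be told apart from a difference between clones. Sample titles name CHX only for the lysate without it. In the other lysates of both readouts, wild-type and knockout, CHX before labelling is assumed from the general protocol. Nothing says that the 2 lysates of a group came from separate lines, so p-values measure the spread between lysates only.

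Enrichment is the log2 ratio of a gene's share of the pulldown to its share of the total input of the same lysate, so 0 means that the share was the same in both and 1 that it doubled. Ribosome profiling libraries held from 1025114 to 19539527 footprints in coding sequences, and the OMM pulldowns were the shallowest with 1025114 and 2506515. RNA-seq libraries held from 38347615 to 100840544 counts. Target transcripts of the knockouts were low in the lines named for them. In CPM (a gene's counts scaled to the library total) AKAP1 stood at 115 and 119 in wild-type total inputs and at 32.2 and 20.3 in the AKAP1 null line, and LARP4 at 225 and 231 against 79.3 and 74. Of 5 intermediate filament genes known from HEK293T cells, the RNA-seq total inputs carried VIM at 442 to 692 CPM, INA at 76.3 to 107, KRT18 at 41.5 to 55.9, NEFM at 25.4 to 48.9 and KRT8 at 3.88 to 20.3, the last overlapping COL1A1 below, while CD3E and HBB had no count in any of them and PTPRC at most 2. ALB had at most 8 counts. COL1A1, a fibroblast gene listed as one the line should lack, stood at 7.16 to 23.1 CPM. In the coding-sequence pulldowns it was at -1.13 at the OMM and -1.07 at the ER (log2), both called lower, and its part in other results was not tested.

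The total input of cytosol replicate 2 stood apart from the other 5 in ribosome profiling. PFKP was at 85.3 RPKM there (footprints in coding sequence scaled to counted length and library) against 18.1 to 21.9 in the others, and NEFM at 85.7 against 12.3 to 21.05. GAPDH was at 972 RPKM against 2642 to 3744 and INA at 12.8 against 49.6 to 66.1. The pulldown of that lysate moved with its total input, so that NEFM, with 1939 and 4772 footprints, had a log2 enrichment of 0.02 against 0.03 in cytosol replicate 1. Some values of HK1, HK2, PKM and TPI1 that rest on this lysate are given with and without it. Those of the other members, PFKP among them, are given with it only.

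The hexokinase transcripts are shown at their start, because the segment that docks on the OMM is encoded there. HK1 (ENSG00000156515) lies at chr10:69269984-69401884 and HK2 (ENSG00000159399) at chr2:74834127-74893359, both on the plus strand of GRCh38. The first coding exon of each is 63 nt long in the main transcript, HK1 at chr10:69318948-69319010 and HK2 at chr2:74834581-74834643. Their opening bases are given from the start codon in the 5′ to 3′ direction, and capitals in HK2 mark bases that differ from HK1.
HK1: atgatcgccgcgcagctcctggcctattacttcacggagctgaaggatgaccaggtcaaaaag
HK2: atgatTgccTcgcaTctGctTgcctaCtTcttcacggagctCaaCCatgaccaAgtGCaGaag
The exons share 49 of 63 bases (77.8%), and the whole coding sequences, 2751 nt in both, share 73% of positions. Both messages thus start with closely related docking segments and have coding sequences of equal length.

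The files count only part of each coding sequence, and the part differs between members. For HK1 382 nt are counted as coding sequence, 13.9% of the 2751 nt. Of the main HK1 transcript 88 nt are free of any annotated UTR, and they lie between codons 1 and 37. For HK2 991 nt are counted (36%), and positions free of UTRs run from codon 1 to codon 917 of its main transcript. Footprints in coding sequence made up 11.5% to 20.0% of HK1 footprints over all exons and 87.9% to 95.2% of HK2 footprints. The counted length was also short for ENO1 (113 nt), PFKL (124 nt), TPI1 (237 nt), PKM (314 nt) and PFKP (419 nt), and longer for GPI (1461 nt) and PGK1 (1240 nt). ALDOA had 9 to 41 footprints in coding sequence in the total inputs against 9095 to 35753 over all exons, and did not reach the minimum of 64 in both total inputs of a location, which every tested entry had to pass. Results are therefore given from coding sequence, the main measure, and from all exons, which holds all 10 genes. In the footprint files GPI, PFKP, ALDOA and PGK1 share an entry with overlapping genes. In RNA-seq their own counts were at least 93.9% of the entry's counts for GPI, PFKP and ALDOA and 90.1% for PGK1. These shares rest on counts already assigned to single genes. They cannot show which gene of an entry the footprints came from.

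Among the members ENO1, TPI1 and PKM had the highest transcript levels in the total inputs. ENO1 (enolase) stood at 303 to 404 FPKM (counts scaled to gene length and library total) over the 7 RNA-seq total inputs, TPI1 (triose phosphate isomerase) at 188 to 261 and PKM (pyruvate kinase) at 89.2 to 175. PGK1 (phosphoglycerate kinase), at 81.2 to 93.5 FPKM, overlapped PKM, and GPI (glucose-6-phosphate isomerase) followed at 40.5 to 46.8. HK1, at 18.7 to 24.0 FPKM, and HK2, at 17.0 to 34.3 FPKM, overlapped each other and lay below GPI in all 7. PFKL and PFKP, the liver and platelet forms of phosphofructokinase, stood at 9.805 to 12.9 and 5.44 to 8.85 FPKM. ALDOA (aldolase A) stood at 6.97 to 8.62 FPKM, although it had 9095 to 35753 footprints over all exons. Another annotated gene overlaps ALDOA, and whether this bears on its RNA-seq counts was not tested.

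**Figure D1:**
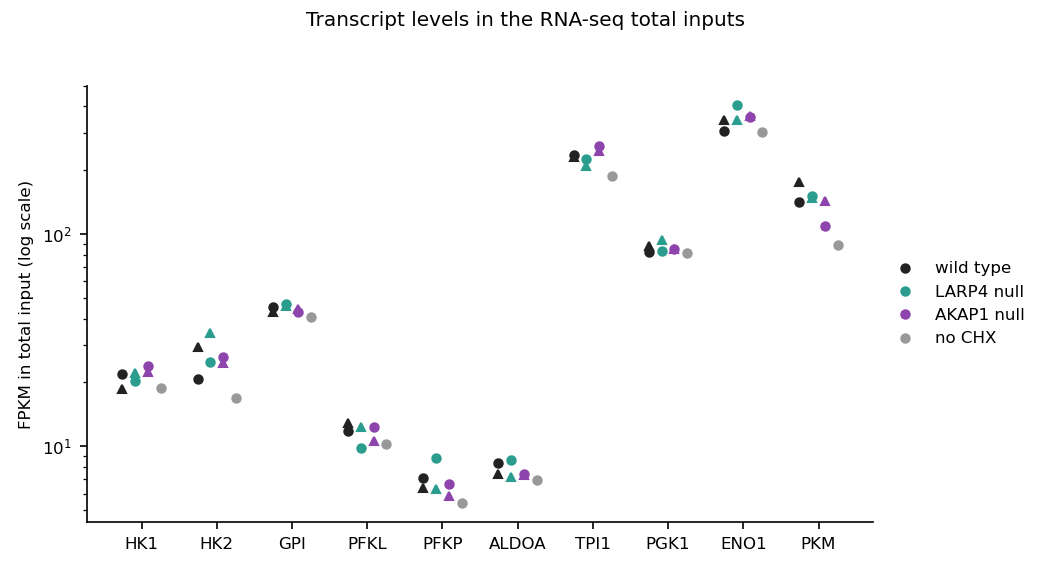
Transcript level of each enzyme in the 7 RNA-seq total inputs, in FPKM on a log axis, with circles for replicate 1 and triangles for replicate 2. HK1 and HK2 lie close together at 17.0 to 34.3 FPKM, and ENO1 is above the other members in all 7.

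None of the 10 transcripts was called different in level between genotypes by edgeR. In AKAP1 null total inputs HK1 differed from wild type by 0.20 ± 0.11 (log2 ± SE) and PKM by -0.32 ± 0.18, both with an adjusted p of 0.973. In LARP4 null total inputs HK2 differed by 0.25 ± 0.23 and HK1 by 0.09 ± 0.11, with an adjusted p of 0.99. The comparison called 0 of 13977 genes in AKAP1 null cells (0%; 489 at an unadjusted p under 0.05, and 15 by DESeq2) and 2 in LARP4 null cells (0.0143%; 509 at an unadjusted p under 0.05, and 28 by DESeq2), 1 higher and 1 lower (0.00715% each). The lower 1 was LARP4 itself, at -1.56 ± 0.12 (adjusted p = 0.0405). AKAP1 in its own null line stood at -2.15 ± 0.22 with an adjusted p of 0.242, so a loss of this size was not called.

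At the OMM the hexokinases lay at opposite ends of the members. Over all exons HK1 gave 1253 footprints in the total input and 415 in the pulldown of replicate 1, and 1408 and 1135 in replicate 2, which is a log2 enrichment of 0.72 and 0.80. HK2 gave 495 and 60 footprints in replicate 1 and 477 and 95 in replicate 2, a log2 enrichment of -0.72 and -1.22. HK1 was thus above its share of the total input in both lysates and HK2 below it in both, with 1.44 and 2.02 between them. In edgeR's quasi-likelihood test HK1 was higher in the pulldown by 0.76 ± 0.09 (log2 ± SE, adjusted p = 7.01e-07) and HK2 was at -1.01 ± 0.15 and called lower (adjusted p = 1.57e-05). Of the 9027 entries tested over all exons 65.7% were called, 17.5% higher and 48.3% lower, with a median of -0.37, and 91.3% of them lay below HK1 and 6.29% below HK2.

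Coding sequence placed the hexokinases in the same order, with HK1 resting on few footprints. HK1 had 159 footprints in the total input and 35 in the pulldown of replicate 1, and 175 and 116 in replicate 2, a log2 enrichment of 0.13 and 0.53. The fit gave 0.38 ± 0.19 (adjusted p = 0.0857), which did not pass the threshold of 0.05 with library totals as the scale. With TMM factors, which set the typical gene near 0, it was 0.68 (adjusted p = 0.00688). HK2 had -0.75 and -1.28 in the same lysates and was called lower at -1.05 ± 0.17 (adjusted p = 3.88e-05). Whether the share of HK1 that is counted bears on its smaller value here was not tested.

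The soluble enzymes at the OMM lay below HK1 and, apart from TPI1, below 0 over all exons. PKM was the lowest of the 8, at -0.79 and -0.77, with -0.78 ± 0.08 in the fit. GPI had -0.52 and -0.67, PGK1 -0.63 and -0.57, and ENO1 -0.59 and -0.60. TPI1 was the exception at 0.11 and 0.10, and did not pass the test (0.10 ± 0.09, adjusted p = 0.295). ALDOA had -0.36 and -0.46, where the median entry had -0.35 and -0.36. PFKL was at -0.56 ± 0.10 and PFKP at -0.50 ± 0.12 in the fit. In all, with library totals as the scale, 7 of 8 soluble enzymes were called lower over all exons, where 48.3% of all entries were. From coding sequence 4 of the 7 that could be tested were called lower, GPI, PGK1, ENO1 and PKM. With HK2 this makes 5 of 9 members called lower and none higher in coding sequence, where 63.1% of all 7162 entries were called, 17.7% higher and 45.4% lower. Leaving out OMM replicate 2 ended the calls of GPI (-0.40, adjusted p = 0.0537) and PKM (-0.26, adjusted p = 0.184), and leaving out OMM replicate 1 that of PKM (-0.33, adjusted p = 0.0716). Without a term for the lysate GPI (adjusted p = 0.172), ENO1 (adjusted p = 0.0651) and PKM (adjusted p = 0.285) lost their calls. All 8 lay below HK1 in both lysates over all exons, and HK2 lay below 7 of 8 in replicate 1 and 8 of 8 in replicate 2. PFKP stood at 0.06 in coding sequence and -0.50 over all exons, so its direction at the OMM depends on which positions are counted.

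**Figure D2:**
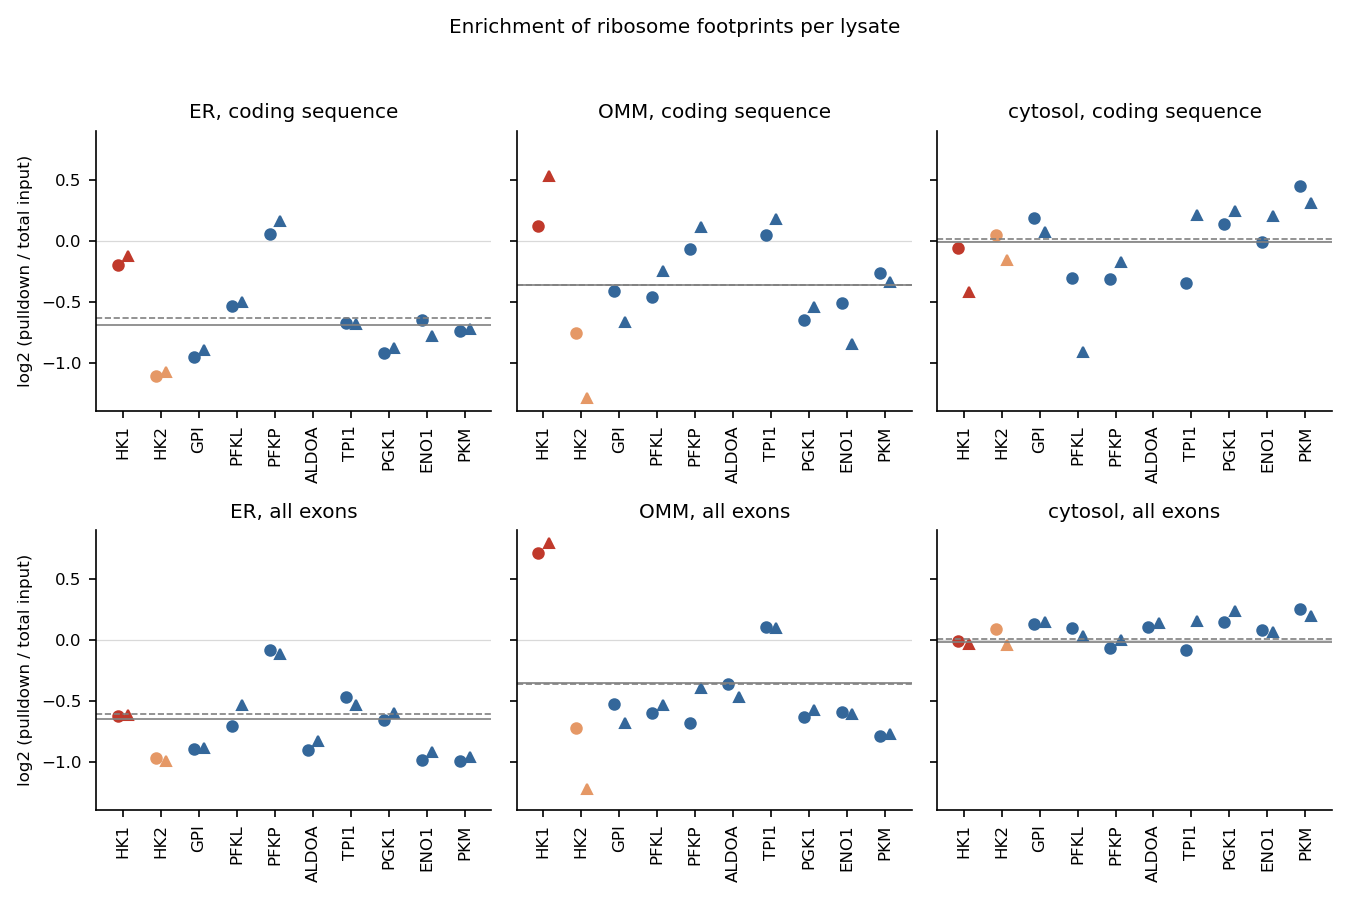
Log2 enrichment of footprints (pulldown over total input) of the 10 members at the ER, the OMM and in the cytosol, from coding sequence (upper row) and all exons (lower row), with circles for replicate 1, triangles for replicate 2 and grey lines at the median of all entries in each lysate (solid for replicate 1, dashed for replicate 2). At the OMM HK1 (red) is the highest point of its lysate in both rows and HK2 (orange) lies between -0.72 and -1.28, and ALDOA has no point in the upper row because it did not reach 64 footprints.

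The size of the change at the OMM depended on the scale, since the median entry stood below 0. TMM moved the median of all entries at the OMM from -0.36 to -0.06 in coding sequence, and the share of called entries that were higher from 28.1% to 51.3%. Relative to the median entry HK1 stood at 0.74 in coding sequence and 1.13 over all exons, and HK2 at -0.68 and -0.64. PKM from coding sequence turned from -0.30 to 0.01 with TMM and was not called there, and GPI lost its call (-0.24, adjusted p = 0.0616). TPI1 was called higher with TMM, at 0.43 in coding sequence (adjusted p = 0.00803) and 0.42 over all exons (adjusted p = 0.000903). Over all exons 2447 of 9027 entries were called higher with TMM and 2359 lower, against 1577 and 4357 with library totals. The calls of ALDOA (-0.10, adjusted p = 0.277) and PFKP (-0.19, adjusted p = 0.225) over all exons also ended with TMM. Both hexokinases kept their direction under TMM, in coding sequence and over all exons.

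For scale, 4 genes of mitochondrial proteins that an earlier analysis of these libraries placed among the most enriched at the OMM were above HK1 in coding sequence. GFM2, IARS2, COX6C and FMC1, which encode a mitochondrial translation factor, a mitochondrial tRNA synthetase, a respiratory chain subunit and an ATP synthase assembly factor, were all called higher, with 3.67 ± 0.13 for GFM2 at the top and 2.53 ± 0.17 for FMC1 at the bottom. They were picked for these values, which are given as a description and are no independent evidence of the direction. The porins on which hexokinase docks were not called from coding sequence, with VDAC1 at -0.22 ± 0.12, VDAC2 at -0.21 ± 0.14 and VDAC3 at 0.01 ± 0.13. Over all exons VDAC2 (-0.28) and VDAC3 (-0.29) were called lower, so VDAC3 turned with the positions counted.

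At the ER most members were called lower with library totals, and HK2 had the lowest value in coding sequence. HK2 had -1.11 and -1.07 in the 2 lysates and was called lower at -1.09 ± 0.13 (adjusted p = 5.42e-07). HK1 had -0.20 and -0.12, with a fit of -0.16 ± 0.14 (adjusted p = 0.268), and over all exons it had -0.62 and -0.61 and was called lower at -0.61 ± 0.08 (adjusted p = 1.2e-06). The median entry lay at -0.67 in coding sequence and -0.64 over all exons, and 52% of entries over all exons lay below HK1. From coding sequence 7 of the 9 members that could be tested were lower and none higher, and over all exons 9 of 10 were lower and none higher. Of all entries in coding sequence 91.7% were called, 20.1% higher and 71.6% lower, and over all exons 92.7%, 21% higher and 71.6% lower. PFKP was the member not called over all exons, at -0.08 and -0.11. With TMM, which moved the median at the ER to -0.04 and the share of called entries that were higher from 21.9% to 53.5%, HK1 from coding sequence became higher (0.48, adjusted p = 0.00915) and over all exons stood at -0.01, so no direction for HK1 at the ER holds across these choices. PFKP became called higher with TMM (0.75 in coding sequence and 0.51 over all exons). The calls of TPI1 (-0.04), ENO1 (-0.07) and PKM (-0.09) ended in coding sequence and PFKL turned to 0.12 with no call, which left 3 members lower, HK2, GPI and PGK1, and 2 higher, where 55.2% of all entries were called with TMM, 29.5% higher and 25.7% lower. With library totals the call of PFKL ended when ER replicate 1 or 2 was left out (adjusted p = 0.157 and 0.0853) or the term for the lysate was (adjusted p = 0.138). HK2 stayed called lower with TMM, at -0.45 in coding sequence and -0.38 over all exons. Over all exons with TMM the calls of HK1, TPI1 (0.10), PFKL (-0.015) and PGK1 (-0.02) ended. This left HK2, GPI, ALDOA, ENO1 and PKM lower and PFKP higher. Of all 9620 entries 2961 were called higher there and 2517 lower.

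Between ER and OMM, HK1 had the largest difference of the 10 members over all exons. Its enrichment at the ER minus that at the OMM was -1.38 ± 0.12 (adjusted p = 1.15e-08), against a median of -0.22 over 8991 entries, and in coding sequence -0.54 ± 0.23 (adjusted p = 0.0622), where TPI1 had the largest. HK2 was at 0.03 ± 0.19 over all exons. Replicate 2 of the ER and of the OMM carry the same pool name in the file headers, and within it HK1 differed by -1.41 over all exons, against -1.34 between the replicate 1 lysates. From coding sequence TPI1 (-0.80), PKM (-0.43) and GPI (-0.38) were called lower at the ER than at the OMM, 3 of the 9 tested members with none higher, where 50.3% of all entries were called, 18.6% higher and 31.7% lower. Over all exons HK1, TPI1, ALDOA, ENO1 and GPI were called lower and PFKP higher (0.41), where 52% of entries were called, 21% higher and 31% lower. Some of these calls over all exons ended whenever an ER or OMM lysate was left out. With TMM the 3 calls from coding sequence came down to TPI1 (-0.47), and over all exons HK1 (-1.09, adjusted p = 5.41e-07) and PFKP (0.69) were the members called. With TMM 37.6% of all entries were called in coding sequence, 22.9% higher and 14.7% lower, and over all exons 41.5%, 25.6% higher and 15.9% lower. TMM also moved the share of called entries that were higher in coding sequence from 37.0% to 60.8%. The calls of PKM and GPI in coding sequence ended when ER replicate 1 was left out (adjusted p = 0.0577 and 0.145) or OMM replicate 1 (adjusted p = 0.0914 and 0.272), that of GPI also without ER replicate 2 (adjusted p = 0.077) and that of PKM without OMM replicate 2 (adjusted p = 0.0602). Without a term for the lysate none of the 3 was called, TPI1 (-0.80) having an adjusted p of 0.084.

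With LOV-BirA free in the cytosol few members were called. HK1 had -0.0036 and -0.03 over all exons and HK2 0.10 and -0.04, so HK1 minus HK2 was -0.10 and 0.01. Only PKM was called from coding sequence, with 0.45 and 0.32 and a fit of 0.39 ± 0.09 (adjusted p = 0.00898), where 8.36% of entries were called, 2.07% higher and 6.29% lower. This split depended on the scale, since with the totals behind the RPKM 89.9% of 2802 called entries were higher and GPI (0.37), PGK1 (0.43), ENO1 (0.33) and PKM (0.62) were the members called, 4 of 9 where 36.7% of all entries were called, 33% higher and 3.71% lower. Without cytosol replicate 2 PKM stayed called, at 0.45, and TPI1 became called lower (-0.34, adjusted p = 0.0477). Without cytosol replicate 1 PKM lost its call (0.32, adjusted p = 0.0655). PFKL, at -0.30 and -0.91, reached an adjusted p of 0.0503, and without cytosol replicate 1 it was called lower (-0.91, adjusted p = 0.00574). Over all exons PFKL turned to 0.10 and 0.03 (0.07 ± 0.08 in the fit), so no direction holds for it in the cytosol. Over all exons 0 members were called by edgeR, and 2 had an unadjusted p under 0.05, PKM (0.23, adjusted p = 0.0557) and PGK1 (0.20, adjusted p = 0.113). Of all entries over exons 10.8% were called, 3.66% higher and 7.11% lower. The pulldown and the total input of cytosol replicate 1 carry different library set names in the file headers, and the part of this in the values was not tested.

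Set against the cytosol, HK1 was higher at the OMM and HK2 lower. Over all exons HK1 differed by 0.78 ± 0.12 (adjusted p = 2.62e-05) and HK2 by -1.05 ± 0.19 (adjusted p = 0.000172), and from coding sequence by 0.60 ± 0.23 (adjusted p = 0.0366) and -1.01 ± 0.21 (adjusted p = 0.00077). Without a term for the lysate the coding-sequence calls were lost (adjusted p = 0.264 for HK1 and 0.142 for HK2), as were those of the soluble enzymes in this contrast, and leaving out OMM replicate 2 also ended them (0.35 with an adjusted p of 0.423 and -0.71 with an adjusted p of 0.0515). That of HK1 also ended without cytosol replicate 2 (0.44, adjusted p = 0.111) and with the totals behind the RPKM as scale (0.35, adjusted p = 0.203). GPI, PGK1, ENO1 and PKM were lower at the OMM than in the cytosol in coding sequence, 4 of 7 tested soluble enzymes, and TPI1, PFKL and PFKP were not called. With TMM TPI1 was called higher in that contrast (0.49, adjusted p = 0.0235), as it was without cytosol replicate 2 (0.46, adjusted p = 0.00593). Over all exons with TMM TPI1 was also called higher (0.37, adjusted p = 0.021). ALDOA (adjusted p = 0.0766) and PFKP (adjusted p = 0.39) were not called there. Over all exons with library totals 7 of 8 soluble enzymes were called lower, and PFKL turned from 0.28 to -0.63 and PFKP from 0.29 to -0.47. Without cytosol replicate 2 HK2 was at -1.11 in both measures, HK1 at 0.77 over all exons (adjusted p = 3.12e-06), and 6 members were called in coding sequence and 9 over all exons, as many as with it. Of all entries tested for OMM minus cytosol 56.3% were called, 17.4% higher and 38.9% lower, and over all exons 58%, 16.8% higher and 41.2% lower. At the ER against the cytosol HK2, GPI, TPI1, PGK1, ENO1 and PKM were called lower in coding sequence, 6 of 9 with none higher, where 81.3% of all entries were called, 19.9% higher and 61.5% lower. HK1 differed there by 0.05 ± 0.20 in coding sequence and by -0.60 ± 0.11 over all exons, where 84.3% of entries were called, 20.9% higher and 63.4% lower. With TMM HK1 turned to 0.69 in coding sequence (adjusted p = 0.0086) and to -0.01 over all exons, HK2 lost its call in coding sequence (-0.41, adjusted p = 0.0752) and TPI1 turned to 0.03. ENO1 also lost its call there (-0.17, adjusted p = 0.335), and PFKP (0.98, adjusted p = 0.000526) and PFKL (0.70, adjusted p = 0.0353) became called higher, which left 3 members lower, GPI, PGK1 and PKM, and 3 higher, where 49.5% of all entries were called with TMM, 29.3% higher and 20.2% lower. Without a term for the lysate HK2 (adjusted p = 0.0537), GPI (adjusted p = 0.052), ENO1 (adjusted p = 0.0882) and TPI1 (adjusted p = 0.115) lost their calls. Over all exons with TMM HK2, GPI, ALDOA, ENO1 and PKM were called lower and PFKP higher (0.52). Of all 9206 entries 2735 were called higher there and 1916 lower. Over all exons with library totals 9 of 10 members were called lower and none higher. PFKL was at -0.68 there and PFKP, not called, at -0.07, so neither has a direction that holds across these choices. Without cytosol replicate 2 HK2 was at -1.14 in coding sequence and HK1 at -0.11 (-0.61 over all exons), and the same numbers of members were called, 6 and 9. These 3 contrasts share libraries, so they are not independent of each other. TMM moved their medians from -0.34 to -0.04 (OMM) and from -0.64 to -0.00092 (ER) and the share of called entries that were higher from 30.9% to 54.1% and from 24.4% to 59.2%.

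In RNA-seq of intact mRNAs, where a labelled ribosome brings down the message it sits on, HK1 was again above HK2 in wild-type cells. HK1 gave 5309 counts in the total input and 11519 in the pulldown of replicate 1 and 5403 and 11698 in replicate 2, a log2 enrichment of 0.65 and 0.84. HK2 gave 4707 and 4980 counts and 8029 and 6661 counts, a log2 enrichment of -0.38 and -0.54. HK1 minus HK2 was thus 1.04 and 1.38, and the values of the 2 genes did not overlap. HK1 was called higher at 0.75 ± 0.14 (adjusted p = 0.00141) and HK2 lower at -0.46 ± 0.09 (adjusted p = 0.00224). Of 13856 genes 65.9% were called, 20.2% higher and 45.6% lower, with a median of -0.28, and 89.7% of them lay below HK1. With TMM, which moved that median to 0.01 and the share of called genes that were higher from 30.7% to 52.8%, HK1 was at 1.04 and called, and HK2 at -0.17 and not called (adjusted p = 0.201). Leaving out wild-type replicate 2 also ended the call of HK2 (adjusted p = 0.0809), as did DESeq2 (-0.18, adjusted p = 0.194) and a fit with no term for the lysate (-0.48, adjusted p = 0.11).

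TPI1 was the other member that rose in the wild-type pulldown. It had 0.65 and 0.66 and was called higher at 0.66 ± 0.11 (adjusted p = 0.000933), and 88% of genes lay below it. GPI (-0.54 and -0.65), PKM (-0.38 and -0.58), PFKP (-0.28 and -0.55), PGK1 (-0.26 and -0.38) and PFKL (-0.14 and -0.30) were called lower with library totals, PFKL with an adjusted p of 0.0498, which makes 2 of 10 members higher and 6 lower, where 20.2% of all genes were higher and 45.6% lower. Of these 5 soluble enzymes GPI remained called with TMM (-0.30, adjusted p = 0.045), and PFKL turned to 0.08. Of all 13856 genes 3847 were called lower with TMM and 4296 higher. ENO1 (0.04 and -0.12) and ALDOA (0.08 and 0.03) were not called with library totals, and ALDOA was with TMM (0.35, adjusted p = 0.0169). Of the 8 calls 3 held without wild-type replicate 2, those of HK1, TPI1 and GPI, and PKM (-0.38, adjusted p = 0.0669), PFKP (-0.28, adjusted p = 0.151), PGK1 (-0.26, adjusted p = 0.213) and PFKL (-0.14, adjusted p = 0.466) lost theirs with HK2. Without wild-type replicate 1 PGK1 (adjusted p = 0.0802) and PFKL (adjusted p = 0.119) lost theirs, and without a term for the lysate PFKP (adjusted p = 0.171) and PFKL (adjusted p = 0.286) did.

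**Figure D3:**
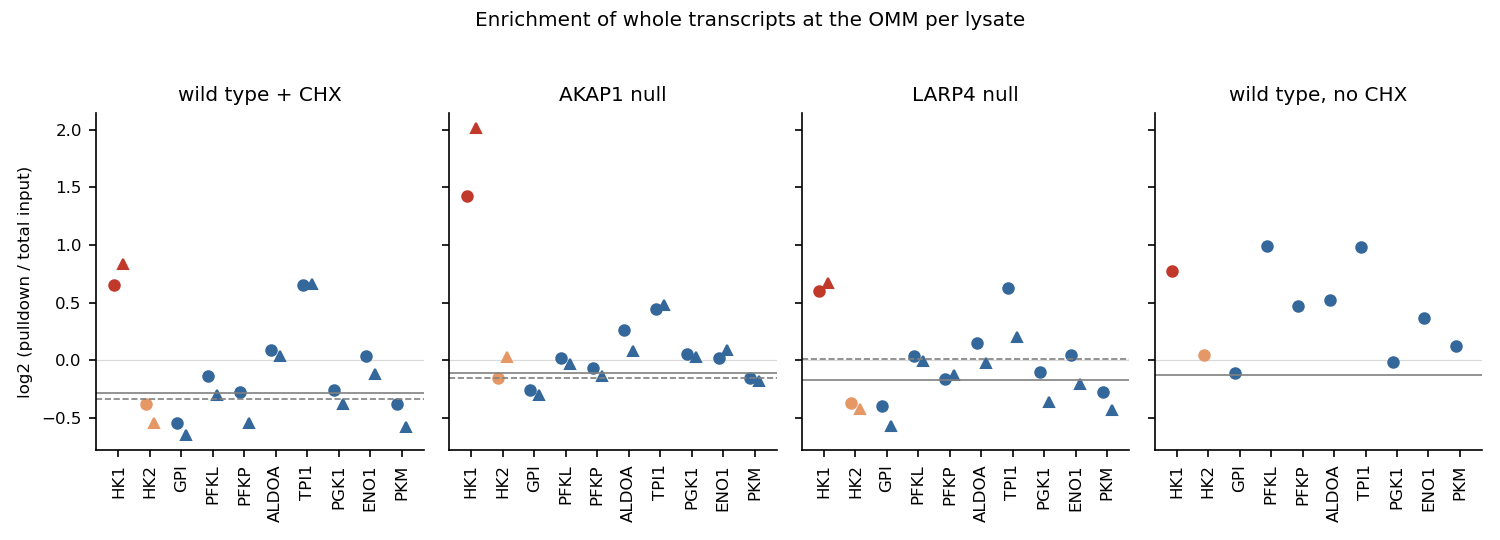
Log2 enrichment of whole transcripts at the OMM in each RNA-seq lysate, with circles for replicate 1, triangles for replicate 2 and grey lines at the median of all genes (solid for replicate 1, dashed for replicate 2). HK1 (red) lies above HK2 (orange) in all 7 lysates, and reaches 1.43 and 2.01 in the AKAP1 null line.

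In the AKAP1 null line HK1 had its highest enrichment at the OMM. AKAP1 is an OMM protein that binds protein kinase A and RNA. HK1 gave 7464 counts in the total input and 22795 in the pulldown of replicate 1, and 5920 and 31207 in replicate 2. These are log2 enrichments of 1.43 and 2.01, above both wild-type lysates. HK2, GPI, PFKL, PFKP, PGK1 and PKM also lay above both of their wild-type values. So did the median gene, at -0.11 and -0.15 against -0.29 and -0.34. HK1 was called higher at 1.72 ± 0.14 (adjusted p = 8.7e-05), and 99.1% of genes lay below it. HK2 had -0.16 and 0.03 (adjusted p = 0.599). TPI1 (0.45 and 0.48) was called higher and GPI (-0.26 and -0.30) lower, and the other 7 members lay between -0.18 and 0.26 in both lysates with no call, which makes 2 of 10 members higher and 1 lower where 42% of genes were called, 13.9% higher and 28.1% lower. The call of TPI1 ended when AKAP1 null replicate 1 or 2 was left out (adjusted p = 0.118 and 0.148), as did that of GPI (adjusted p = 0.184 and 0.258), and GPI was not called with TMM (-0.16, adjusted p = 0.299). ALDOA became called higher with TMM (0.30, adjusted p = 0.0498). Without a term for the lysate TPI1 (adjusted p = 0.0772) and GPI (adjusted p = 0.129) were not called.

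The difference from wild type was called for HK1 and for no other member. Its enrichment was higher by 0.97 ± 0.19 (adjusted p = 0.0126), against a median of 0.19 over all genes, where 14.5% were called, 6.52% higher and 7.96% lower. HK2 differed by 0.40 ± 0.13 (adjusted p = 0.0722), and the soluble enzymes by -0.19 for TPI1 to 0.36 for PGK1. With TMM, which moved the median from 0.19 to 0.01 and the share of called genes that were higher from 45.0% to 16.7%, HK1 differed by 0.80 ± 0.21 (adjusted p = 0.0302). The call of HK1 was lost without a term for the lysate (1.00, adjusted p = 0.0548), and without wild-type replicate 1 (0.88, adjusted p = 0.122), wild-type replicate 2 (1.07, adjusted p = 0.0856) or AKAP1 null replicate 2 (0.68, adjusted p = 0.0898), while the direction stayed. The count of all genes called in this contrast, 2006, came to 488 to 745 when a wild-type or AKAP1 null lysate was left out, and to 6488 and 6467 without LARP4 null replicate 1 and 2, which share the estimate of spread. The 4 mitochondrial genes given for scale split in the same contrast, with 2 higher and 2 lower, from 1.31 ± 0.24 for IARS2 to -2.30 ± 0.16 for COX6C.

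In the LARP4 null line the hexokinases kept the order seen in wild-type cells. LARP4 is an RNA-binding protein known to bind poly(A) and the poly(A)-binding protein. HK1 had 0.60 and 0.67 and was called higher at 0.63 ± 0.13 (adjusted p = 0.00476). HK2 had -0.37 and -0.42 and was called lower at -0.40 ± 0.09 (adjusted p = 0.00706). TPI1 was also called higher, with lysates apart at 0.63 and 0.21, and GPI and PKM lower, which makes 2 of 10 members higher and 3 lower where 52.8% of genes were called, 22.8% higher and 30% lower. The call of TPI1 ended without LARP4 null replicate 1 (0.21, adjusted p = 0.113), and with TMM that of PKM (-0.26, adjusted p = 0.0916). Without a term for the lysate HK2 (adjusted p = 0.213), TPI1 (adjusted p = 0.0664) and PKM (adjusted p = 0.173) lost their calls. Against wild type 0 genes were called by edgeR (0%; 2270 of 13856 at an unadjusted p under 0.05, and 456 by DESeq2). HK1 differed by -0.11 ± 0.19 and HK2 by 0.07 ± 0.13, both within 1 SE of 0 with library totals, which does not show that the lines act alike. With TMM HK1 differed by -0.32 ± 0.21 and HK2 turned to -0.14 ± 0.15, with no call. Leaving out LARP4 null replicate 1 turned the count of all genes called to 5664 and called TPI1 (-0.45, adjusted p = 0.00928), and leaving out replicate 2 gave 93.

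**Figure D4:**
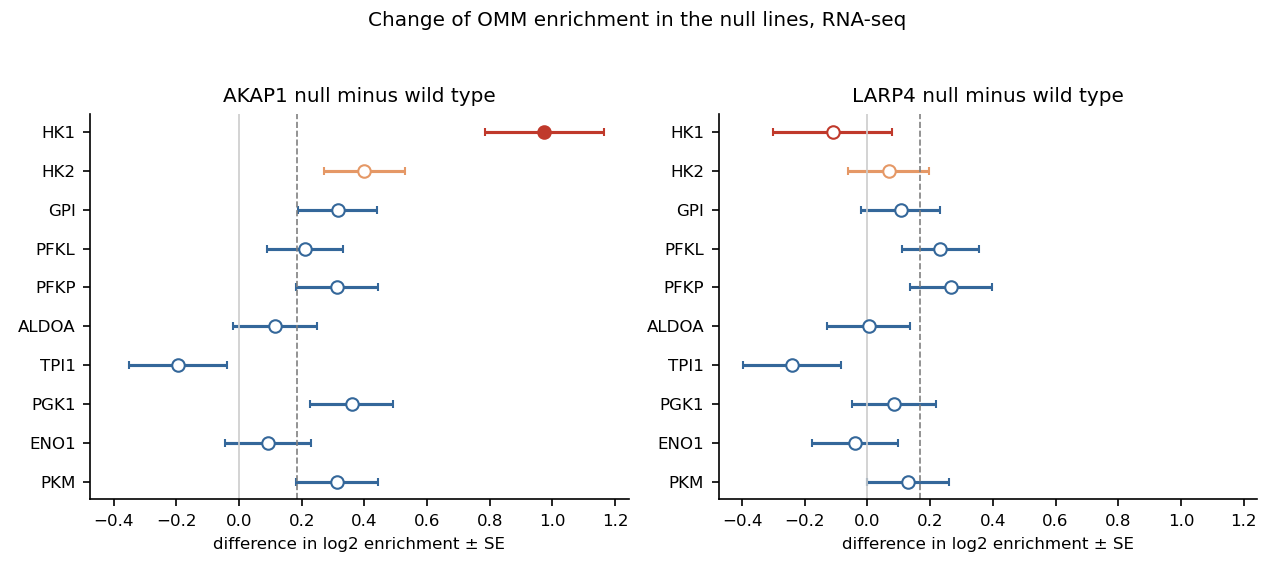
Difference in log2 enrichment at the OMM between each null line and wild-type cells for the 10 members, with bars for the SE, filled points for an adjusted p under 0.05, and a dashed line at the median of all genes. In the AKAP1 null line HK1 is the filled point at 0.97, and in the LARP4 null line no point is filled.

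Without CHX 1 lysate was measured, so these values have no replicate check and no test. HK1 had 0.77, where wild-type cells with CHX had 0.65 and 0.84, and HK2 had 0.04. PFKL (0.99) and TPI1 (0.98) were above HK1 there, followed by ALDOA (0.52), PFKP (0.47), ENO1 (0.37) and PKM (0.12). PGK1 (-0.02) and GPI (-0.11) were below HK2, and the median gene was at -0.13. The soluble enzymes thus had a median of 0.42, against -0.20 and -0.34 in wild-type cells with CHX, and the distance of HK1 to that median was 0.36 instead of 0.85 and 1.18. The light pulse was also shorter in this sample, and its label does not name the control gRNA that the wild-type cells carry. CHX, labelling time and a difference between the cells therefore cannot be told apart.

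HK1 was above HK2 in each of the 9 lysates labelled at the OMM, 2 from ribosome profiling over all exons and 7 from RNA-seq, by 0.73 to 2.02. It was above the median of the soluble enzymes in the same 9, by 0.36 to 2.02, but not above each soluble enzyme. TPI1 was level with HK1 in wild-type replicate 1 of RNA-seq (0.6538 against 0.6530). In LARP4 null replicate 1 TPI1 was above HK1 (0.63 against 0.60), and without CHX PFKL and TPI1 were. HK2 was below that median in 8 of the 9, the exception being AKAP1 null replicate 2, where it was above by 0.03. At the ER over all exons HK1 exceeded HK2 by 0.35 and 0.38 and the soluble median by 0.18 and 0.10, less than in any of the 9. Coding sequence did not give that separation, since HK1 minus HK2 was 0.91 and 0.95 at the ER against 0.88 and 1.82 at the OMM. The lysates share cell lines, so the 9 are not independent.

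**Figure D5:**
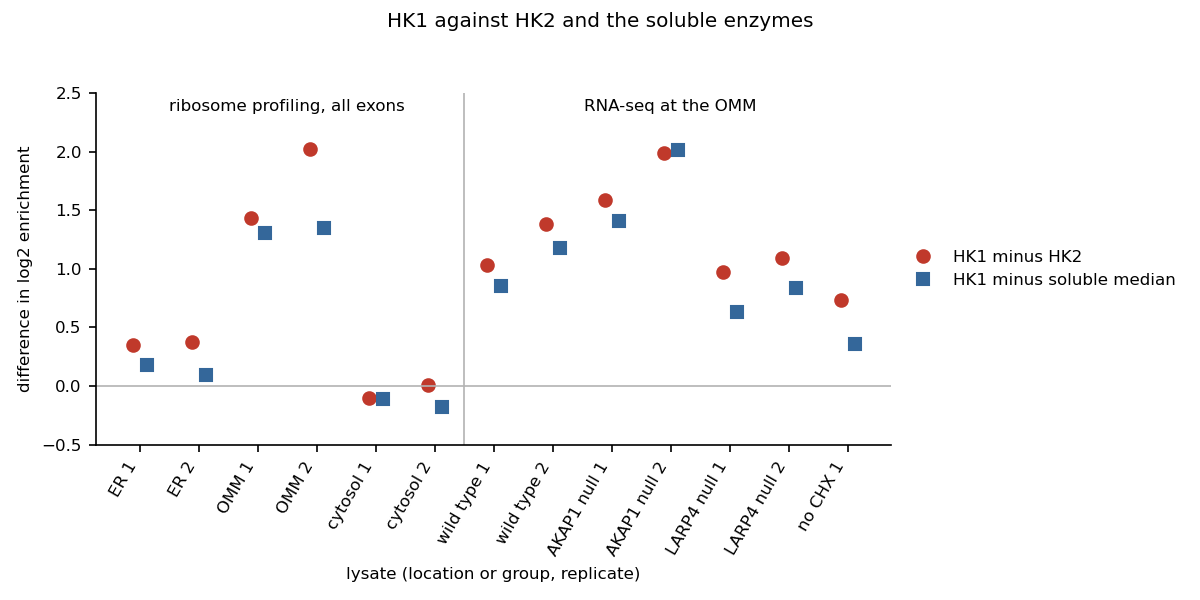
Log2 enrichment of HK1 minus that of HK2 (red circles) and minus the median of the 8 soluble enzymes (blue squares) in each lysate, for ribosome profiling over all exons at the left of the line and for RNA-seq at the OMM at its right. Differences run from 0.36 to 2.02 in the 9 OMM lysates and from -0.17 to 0.38 in the 4 lysates labelled at the ER or in the cytosol.

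Other genes of sugar metabolism show what surrounds the members. Of 24 further glycolysis genes, 12 passed the minimum of footprints at the OMM in coding sequence, and 7 of them were called lower and 1 higher, against the 45.4% and 17.7% of all entries, with a median of -0.54 against -0.36 for all entries. GAPDH, the glyceraldehyde-3-phosphate dehydrogenase, was among the lower, at -0.67 ± 0.09 in coding sequence and -0.74 ± 0.13 over all exons. The 1 higher was ADPGK, an ADP-dependent glucokinase with a signal for the ER, at 0.74 ± 0.17, and over all exons it was not called (0.15 ± 0.12). At the ER ADPGK was called higher at 1.53 ± 0.14, and the other 12 tested genes of the list were called lower, where 71.6% of all entries were lower and 20.1% higher. With TMM 5 of these 12 remained called lower, where 25.7% of all entries were. ADPGK was also called higher in the cytosol from coding sequence, at 0.63 ± 0.13, but not over all exons (0.22 ± 0.10, adjusted p = 0.169). It was at 0.82 without cytosol replicate 2, and without replicate 1 at 0.38 and not called (adjusted p = 0.176). In wild-type RNA-seq 16 of the 24 were tested, of which 7 were called lower and none higher, near the 45.6% of all genes called lower, from -0.96 for TIGAR to 0.19 for PGAM1, with a median of -0.26 against -0.28 for all genes.

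Of the 8 pentose phosphate enzymes, H6PD, the form inside the ER, was higher at the ER by 2.01 ± 0.16, and 5 of the 7 tested were called lower, a share near the 71.6% of all entries. PGLS (6-phosphogluconolactonase) was higher at the OMM by 0.38 ± 0.13 in ribosome profiling, by 0.47 ± 0.11 in the cytosol, and by 1.00 ± 0.12 in wild-type RNA-seq. In the cytosol it was at 0.55 without replicate 2, and without replicate 1 at 0.38 and not called (adjusted p = 0.0668), and at the OMM its call ended without either replicate (adjusted p = 0.177 and 0.0886). Its enrichment fell by 0.74 in AKAP1 null against wild-type cells (adjusted p = 0.0205). Of the 5 carriers for glucose and lactate in the plasma membrane 3 passed the minimum at the ER. All 3 were called higher, where 20.1% of all entries were. SLC2A1 (the glucose carrier GLUT1) was higher by 1.78 ± 0.12 and BSG (basigin, a partner of lactate carriers) by 2.73 ± 0.12. At the OMM SLC2A1 was called lower at -0.47 ± 0.16, and BSG was not called from coding sequence (0.07 ± 0.14) but was over all exons (0.35 ± 0.11).

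The genes whose enrichment was most like that of each hexokinase over the 13 lysates differed between HK1 and HK2. Likeness was the Euclidean distance over the 13 log2 enrichments, each lysate centred on its median gene. Among 8203 genes with exon counts MOCS1 (distance 0.57), NDUFA10 (0.592) and EARS2 (0.781) were nearest to HK1, and among 6424 genes from coding sequence NDUFA10 (0.871) was the nearest. RBM22 (0.423), DDX1 (0.503) and SEC23B (0.516) were nearest to HK2 over all exons, and ATP6V1B2 (0.4), RBM22 (0.459) and DHX32 (0.465) from coding sequence. HK2 itself ranked 4688 of 8203 in likeness to HK1 over all exons and 3964 of 6424 from coding sequence, at distances of 4.31 and 4.24. The median of the soluble enzymes was nearest to CTTN (0.289), TKFC (0.326) and ACTN4 (0.336) over all exons, and to SF3A3 (0.372), PIAS4 (0.389) and PLIN3 (0.417) from coding sequence. The lysates share cell lines and labelling, so these distances are descriptions.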

How the data were processed

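Ribosome profiling files held estimated counts of footprints and RPKM, which the authors made by removing rRNA and tRNA reads with Bowtie, aligning the rest to GRCh38 with TopHat and counting unique 27 to 36 nt reads with plastid, spread over their centre after 13 nt at each end. Overlapping genes were merged, which gives 58849 entries, of which 1079 hold several genes. RNA-seq files held counts per gene, made by the authors with STAR and featureCounts (strand setting not given in the sources used here), and a deposited score named FPKM that was 10 times the FPKM recomputed from counts, so FPKM was recomputed. From 3 to 7 broken lines per RNA-seq file were left out.

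Estimated counts were rounded and tested with edgeR 4.0.16 (glmQLFit and glmQLFTest, R 4.3.3), with library totals as scale, a term per lysate and Benjamini-Hochberg adjustment over all entries tested, at a threshold of 0.05. Pulldown and total input came from the same lysate by the study's methods, and their deviations correlated with r of 0.497 to 0.883. Entries needed 64 footprints in both total inputs, and RNA-seq genes a mean of 64 counts. Levels in total inputs were scaled by TMM. Per-lysate RNA-seq ratios used a pseudocount of 0.5. Alternatives were TMM, DESeq2 1.42.0, a lower and a higher minimum, no lysate term, the totals behind the RPKM, all exons and leaving out lysates. The fits were tested on simulated data.

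Members and gene lists were chosen with earlier results of these data known. The members were named throughout. From other lists single values were given for the genes with the highest and lowest fitted value of a comparison, for their values elsewhere, and for GAPDH, SLC2A1 and the VDACs. Some values that the rule would name are not reported here. Sequences and coordinates are from GENCODE on GRCh38.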

Additional observations from a re-analysis of the deposited data

Results flagged for a closer look

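Several differences between locations or genotypes passed the test of the difference itself with library totals as the scale. In coding sequence the enrichment at the ER minus that at the OMM was -0.80 for TPI1, -0.43 for PKM and -0.38 for GPI, and with TMM the last 2 were not called. At the ER minus the cytosol it was -0.80 for ENO1, -0.61 for TPI1, -1.11 for PKM, -1.05 for GPI, -1.05 for HK2 and -1.09 for PGK1, and with TMM those of ENO1 (adjusted p = 0.335), HK2 (adjusted p = 0.0752) and TPI1 (0.03) were not called. At the OMM minus the cytosol it was 0.60 for HK1, the 1 positive value among those called, and -1.01 for HK2, -0.79 for ENO1, -0.79 for PGK1, -0.69 for PKM and -0.68 for GPI. In RNA-seq the AKAP1 null line minus wild-type cells gave 0.97 for HK1. Without a term for the lysate no member was called for ER minus OMM, for OMM minus cytosol or for AKAP1 null minus wild type.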

How the results depend on the processing

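The exon values with TMM, and those without a lysate, were chosen after seeing the data. Enrichment is a share of each library, so library totals and TMM set different zeros. OMM pulldowns had the fewest footprints, and 2 lysates per group give few degrees of freedom. When a lysate was left out, the remaining one was assumed to vary like the other groups. A change of sign was counted where either value was called, and the cause of the changes was not tested.

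Without the replicate block (the term that ties pulldown and total input) the members called numbered 2 at the OMM, 0 in the cytosol, 0 for ER minus OMM, 2 for ER minus cytosol, 0 for OMM minus cytosol, 5 in wild-type RNA-seq, 1 in AKAP1 null, 2 in LARP4 null and 0 for AKAP1 null minus wild type. The entries called without it numbered 4738 (ER), 1635 (OMM), 30 (cytosol), 1448 (ER minus OMM), 2468 (ER minus cytosol), 294 (OMM minus cytosol), 6078 (wild type), 2198 (AKAP1 null), 3667 (LARP4 null) and 429 (AKAP1 null minus wild type), against 7211, 4516, 638, 3574, 5906, 3882, 9127, 5822, 7312 and 2006 with it. For total inputs of null and wild-type lines, which share only a number (r = 0.206 and 0.339), adding a replicate block changed the LARP4 count from 2 to 0.

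With TMM 4343 entries were called at the ER and 3597 for ER minus cytosol. The members called with TMM were 1 for ER minus OMM, where 2672 of 7107 entries were, and 4 in wild-type RNA-seq, where 8143 of 13856 genes were. With DESeq2 the entries numbered 3770 (ER), 388 (cytosol), 3040 (ER minus cytosol), 456 (LARP4 null minus wild type), and 15 and 28 for AKAP1 and LARP4 null inputs. The members called with DESeq2 were 1 for ER minus OMM, where 2450 of 7107 entries were, and 4 in wild-type RNA-seq, where 7721 of 13856 genes were. The higher minimum of footprints left 4242 (ER), 2885 (OMM), 394 (cytosol), 2230 (ER minus OMM), 3143 (ER minus cytosol) and 2397 (OMM minus cytosol). The totals behind the RPKM gave 4 members and 2802 entries in the cytosol, 89.9% of them higher against 24.8% with library totals. For ER minus OMM they gave 1 member, where 2648 of 7107 entries were called. Over all exons 9 members were called at the OMM, 0 in the cytosol and 6 for ER minus OMM, with 1034 entries in the cytosol. With TMM over all exons 8 members were called at the OMM, where 4806 of 9027 entries were, and 0 members and 1017 entries in the cytosol.

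Leaving out 1 lysate at a time of the groups in each comparison, members called ranged from 6 to 6 (ER), 3 to 4 (OMM), 1 to 2 (cytosol), 1 to 2 (ER minus OMM), 6 to 6 (ER minus cytosol), 4 to 6 (OMM minus cytosol), 3 to 6 (wild type), 1 to 1 (AKAP1 null), 5 to 5 (LARP4 null), 0 to 1 (AKAP1 null minus wild type) and 0 to 1 (LARP4 null minus wild type). Over all exons they ranged from 9 to 9, 9 to 9, 0 to 0, 3 to 4, 9 to 9 and 8 to 9 for the first 6. Entries called ranged from 6075 to 7304, 2822 to 3629, 817 to 856, 2615 to 3036, 5003 to 6275 and 2573 to 3991 for the locations and their differences in the same order, and over all exons from 7942 to 9015, 3881 to 4907, 1313 to 1425, 3590 to 4021, 6817 to 7946 and 3603 to 5280. In RNA-seq they ranged from 5320 to 6145 (wild type), 1319 to 1690 (AKAP1 null), 7949 to 8651 (LARP4 null), 488 to 745 (AKAP1 null minus wild type), 0 to 5664 (LARP4 null minus wild type) and 0 to 8 (LARP4 null inputs), and stayed at 0 for AKAP1 null inputs. An equal number called does not mean that the same members were called. Lysates of the other groups enter these fits through the shared spread. Leaving out one of those gave 7181 to 7367 entries (ER), 4355 to 4801 (OMM), 426 to 467 (cytosol), 3970 and 3989 (ER minus OMM), 8488 to 10731 (wild type), 4284 to 8561 (AKAP1 null), 6092 to 6375 (LARP4 null), and 6488 and 6467 for AKAP1 null minus wild type without LARP4 null replicate 1 and 2, where 70.07% and 69.96% of those called were higher, against 45.0% with all lysates.

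These values changed sign. At the ER with TMM and DESeq2, HK1 went to 0.4755 and 0.4411, PFKL to 0.1203 and 0.0844, PGLS to 0.4952 and 0.4617, VDAC3 to 0.2905 and 0.2550, IARS2 to 0.0937 and 0.0581, and with TMM FMC1 to 0.4456 and TPI1 over all exons to 0.1040. At the OMM PKM went to 0.0083 with TMM and 0.0373 with DESeq2, and over all exons PFKP to -0.50 and VDAC3 to -0.2915. For ER minus OMM over all exons with TMM, GPI went to 0.0042 and PKM to 0.0950. For ER minus cytosol over all exons HK1 went to -0.5983 (-0.5939 and -0.6024 without ER replicate 1 and 2, and -0.6111 to -0.5848 over all lysates left out) and PFKL to -0.6840. With TMM TPI1 went to 0.0278 (0.0529 over all exons), PGLS to 0.0245, VDAC3 to 0.5327, IARS2 to 0.0837 and COX6C to 0.5205, and with DESeq2 the last 3 to 0.4652, 0.0248 and 0.4620. For OMM minus cytosol over all exons PFKL went to -0.6256 (-0.3245 with TMM) and PFKP to -0.4727. In wild-type RNA-seq PFKL went to 0.0758 with TMM and 0.0662 with DESeq2.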
